A study of Mus musculus with 12 samples.

Results

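DNA replication genes, meaning those for the proteins that copy DNA and make its building blocks, were followed in whole bone marrow of irradiated and unirradiated mice. The 40 genes were listed by their known function in replication and deoxynucleotide synthesis, with earlier results of these data known. All 40 were found among the 21853 genes of the deposited table, and all 40 were among the 10994 genes that passed the filter on low values and were tested. The marrow came from B6 mice in 4 groups of 3 libraries each. Control mice were not irradiated, and no vehicle or gavage is stated for them. TBI mice received 5 Gy of total body irradiation with gamma rays at 0.66 Gy/min and then olive oil (100 µL) by gavage as the vehicle. TBI+DEIX mice received the same irradiation and DEIX by mouth at 25 mg/kg once a day for 14 days. DEIX mice received DEIX without irradiation, at the same stated dose and schedule. DEIX is not spelled out in the labels, and the series title names deinoxanthin, a carotenoid pigment of radiation-resistant bacteria. Marrow was taken 14 days after irradiation. The labels do not say that the libraries of a group came from separate mice, so the p-values measure only the spread between these libraries.

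Replication is prepared in G1 phase, when the origin recognition complex, Cdc6 and Cdt1 load the Mcm2 to Mcm7 helicase onto origins. In S phase, Cdc45 and the GINS complex turn that helicase on, primase and the polymerases copy both strands, and the sliding clamp Pcna holds the polymerases on DNA. Most of these genes are E2F targets whose transcripts are made as cells enter S phase, and in marrow they are high in cycling progenitors and early erythroid and B lineage cells and low in mature neutrophils. In a bulk sample, fewer cells of a dividing type and less RNA per cell cannot be told apart.

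The values are FPKM, fragments scaled to transcript length and to the mapped fragments of the library, so they are levels per length relative to the rest of the library. Library sums of FPKM ranged from 493683 in TBI+DEIX replicate 1 up to 848843 in TBI+DEIX replicate 3, and between 10359 and 10832 genes had at least 1 FPKM. Total reads are unknown. From the steps of low values, 1 read was worth between 0.877 and 1.89 times the FPKM it was worth in control replicate 1, with the largest value in TBI+DEIX replicate 3. These ratios are rough, since in the 11 libraries other than control replicate 1 the commonest ratio covered 1.18% to 9.57% of low genes, and for TBI+DEIX replicate 1, with the fewest, it was not taken as resolved, so the libraries are not ranked by depth. The listed markers of erythroid cells, promyelocytes, neutrophils, monocytes, B cells, T and NK cells and progenitors were all above 0 in every library. The neutrophil genes S100a8, S100a9 and Ngp, which are not in those lists, are listed at exactly 0 in 2, 4 and 5 libraries and together held up to 26.4% of the FPKM sum of another.

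Replication transcripts were lower in the irradiated mice given DEIX than in those given the vehicle. Between TBI+DEIX and TBI, 23 of the 40 genes fell and none rose at an adjusted p under 0.05 (limma on log2(FPKM + 1), Benjamini-Hochberg over all 10994 genes). Of all tested genes, 3.41% were called lower and 8.10% in either direction. All 40 estimates were below 0, with a median change of -0.56 on the log2 scale, or -34.0% in FPKM, where the median of all tested genes was 0.003. The changes ran from -0.98 for Cdc6 to -0.04 for Rfc1. In 30 of the 40 genes, every TBI+DEIX library was below every TBI library, a state found in 12.7% of all tested genes. Without TBI replicate 3 no member was called (28 of 40 at an unadjusted p under 0.05 in limma, against 17.3% of all tested genes) and the median change was -0.44. Without TBI+DEIX replicate 3 no member was called either (30 of 40 at an unadjusted p under 0.05, against 21.9%), with a median of -0.50, and a fit on the TBI and TBI+DEIX libraries alone also called none (32 of 40 at an unadjusted p under 0.05, against 18.3%). With values rescaled to the same sum in every library (TPM scale), 2 members were called with a median of -0.71, and the share of all called genes that were higher went from 57.9% to 36.0%.

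**Figure D1:**
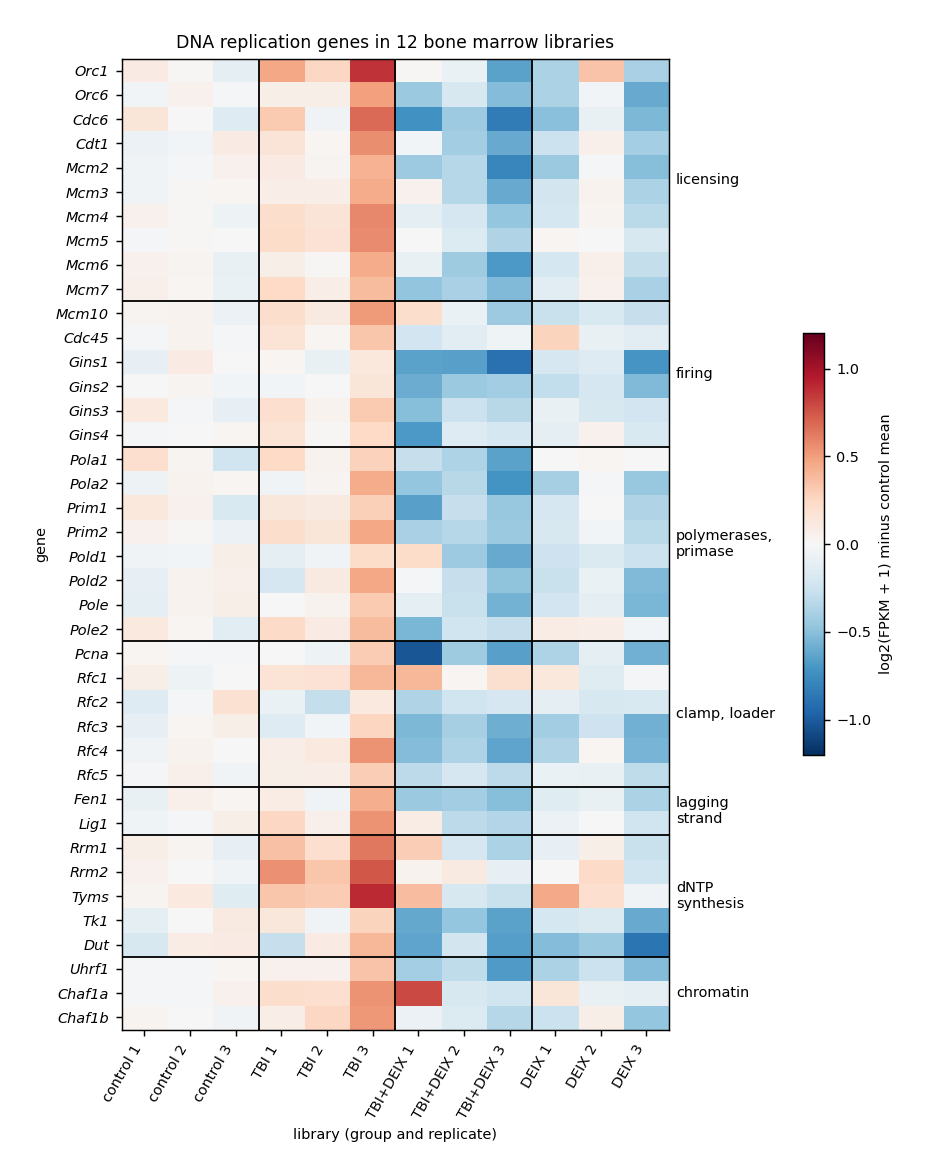
Level of each replication gene (rows, grouped by role) in each of the 12 libraries (columns), as log2(FPKM + 1) minus the mean of the 3 control libraries, with red above and blue below control. TBI replicate 3 is the reddest column, with the highest value of all 12 libraries for 38 of the 40 genes, and the TBI+DEIX columns are mostly blue.

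Some libraries stood at the ends of the range. TBI replicate 3 held the highest value of its group for 40 of 40 genes and the highest of all 12 libraries for 38. TBI+DEIX replicate 3 held the lowest of all 12 for 25 genes, TBI+DEIX replicate 1 for 9 and DEIX replicate 3 for 5. The control libraries were tight, with a median coefficient of variation of 4.68% over the 40 genes. The TBI, TBI+DEIX and DEIX groups had medians of 14.8%, 13.5% and 13.8%.

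The promoters of the 40 genes were searched for letters that E2F factors and the CCAAT-binding factor NF-Y are known to bind. RefSeq promoter entries (GRCm38.p6, 250 bases before the start) matched 33 of the 40 genes with 39 entries. The E2F core was written as TTTCCCGC, TTTGGCGC, TTTCGCGC or TTTGCCGC, searched on both strands with overlapping matches counted. It was present in 9 of the 39 entries (23.1%) and in 611 of all 32851 promoter entries of that length (1.86%). CCAAT, on either strand, was present in 22 of the 39 (56.4%) and in 33.8% of all entries. A match is a description of the letters and not a bound site. By gene, the E2F core was in 7 of the 18 matched genes that fell between TBI and TBI+DEIX and in 2 of the 15 that were not called, and no test was made of that difference.

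These stretches show the E2F core in each of those 9 promoters, and the CCAAT letters of Pcna, the most abundant member, which lacks the core in this window. They are written 5′ to 3′ on the strand of the gene, with the matched letters in capitals. Each is 60 bases long, or 30 where the longer stretch overlapped an annotated exon.
Orc1 (chr4:108579416-108579445, plus strand): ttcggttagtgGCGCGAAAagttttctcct
Cdc6 (chr11:98907987-98908046, plus strand): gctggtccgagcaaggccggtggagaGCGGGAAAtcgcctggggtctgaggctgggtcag
Mcm5 (chr8:75109330-75109389, plus strand): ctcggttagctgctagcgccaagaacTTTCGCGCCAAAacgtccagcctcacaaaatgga
Mcm6 (chr1:128359782-128359841, minus strand): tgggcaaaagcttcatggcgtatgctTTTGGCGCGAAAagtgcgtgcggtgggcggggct
Mcm7 (chr5:138172030-138172059, minus strand): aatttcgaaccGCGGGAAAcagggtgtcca
Gins3 (chr8:95633507-95633536, plus strand): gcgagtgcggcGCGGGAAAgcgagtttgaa
Pola1 (chrX:93632260-93632319, minus strand): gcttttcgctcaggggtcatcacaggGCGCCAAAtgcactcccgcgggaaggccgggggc
Rfc3 (chr5:151651209-151651238, minus strand): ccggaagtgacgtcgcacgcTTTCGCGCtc
Uhrf1 (chr17:56304102-56304161, plus strand): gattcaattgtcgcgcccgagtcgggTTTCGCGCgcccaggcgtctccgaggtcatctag
Pcna (chr2:132253250-132253279, minus strand): accacgggtacgATTGGtccttgaggagag
Counted from the start of the RefSeq entry, the first matched letter lay 27 bases before it in Orc1, 138 in Cdc6, 165 in Mcm7, 41 in Gins3, 138 in Pola1, 10 in Rfc3 and 185 in Uhrf1. In Mcm5 and Mcm6 different forms of the core overlap, and the first begins 153 and 110 bases before the start. The GENCODE gene positions printed with the results start elsewhere for most of these genes, and 6 of the 9 first matches (Cdc6, Gins3, Mcm7, Orc1, Rfc3 and Uhrf1) lie inside the GENCODE gene.

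**Figure D2:**
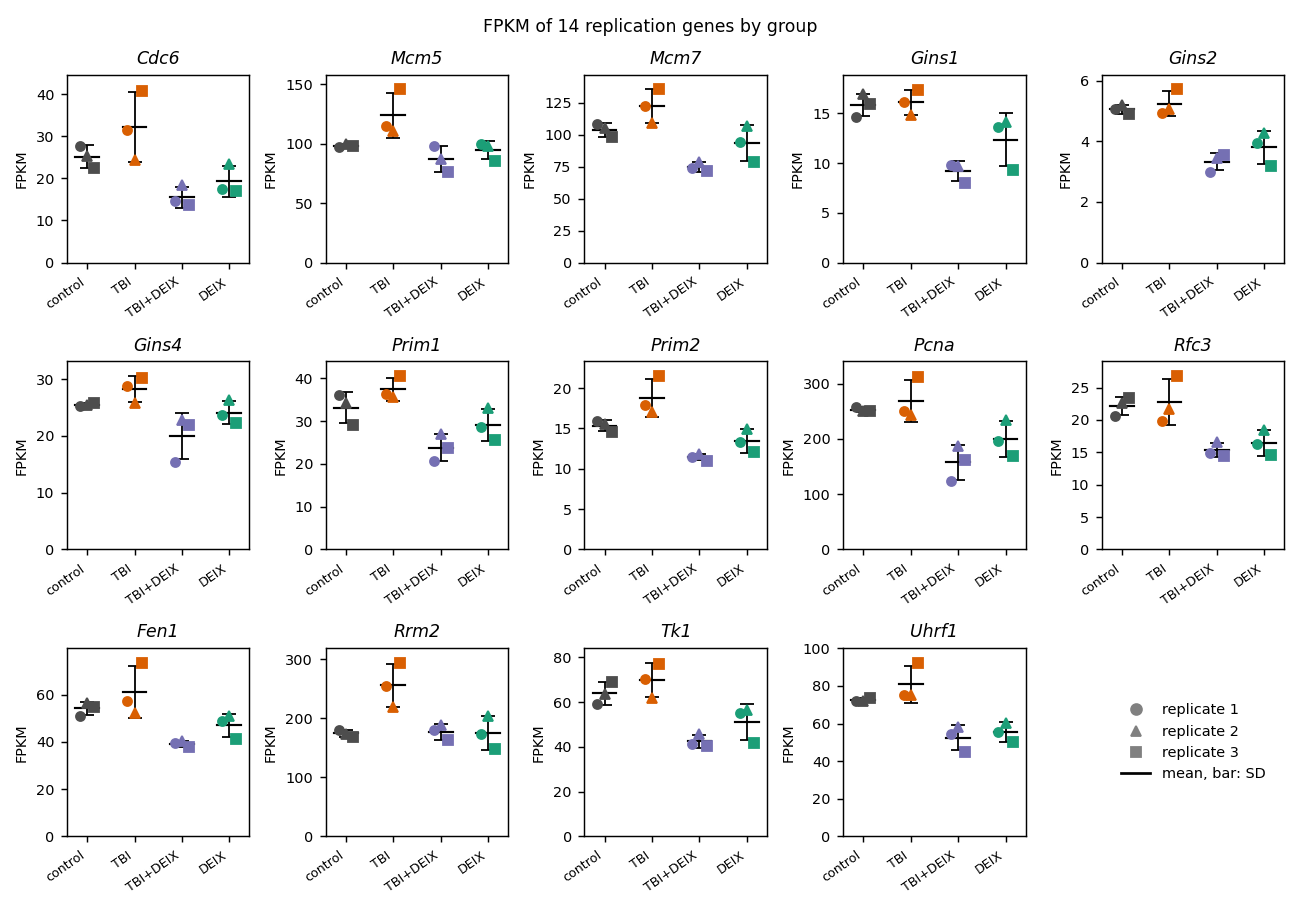
FPKM (vertical axes, from 0) of 14 replication genes in each of the 4 groups, with 1 point per library, a bar at the mean and whiskers of 1 SD (n = 3). In all 14 genes the 3 TBI+DEIX points lie below the 3 TBI points, and the square of TBI replicate 3 is the highest point of its group.

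Origin licensing genes, which load the helicase in G1, included the gene that fell most, Cdc6. All 10 were fully separated between TBI+DEIX and TBI, and 6 fell (Orc6, Cdc6, Mcm2, Mcm4, Mcm5 and Mcm7), with a median over the 10 of -0.60 on the log2 scale. Cdc6 (chr11:98907801-98923940 on GRCm38, the mm10 build, as are the other positions), the ATPase that recruits the helicase, was at 27.8, 25.2 and 22.5 FPKM in control, 31.5, 24.3 and 40.8 in TBI, 14.7, 18.3 and 13.6 in TBI+DEIX, and 17.5, 23.4 and 17.0 in DEIX. Its TBI+DEIX libraries were the lowest of the irradiated mice without overlap, and the TBI mean was 2.07 times the TBI+DEIX mean (log2 change -0.98, SE 0.19, limma adjusted p = 0.0196).

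Mcm7 (chr5:138164583-138172422), a subunit of the helicase ring, was at 108, 105 and 98.0 FPKM in control, 122, 109 and 136 in TBI, 74.1, 78.9 and 71.4 in TBI+DEIX, and 94.0, 107 and 78.8 in DEIX. It fell by 38.9% between TBI and TBI+DEIX (log2 change -0.70, SE 0.12, limma adjusted p = 0.0170), and its TBI+DEIX libraries were also all below control. Mcm5 (chr8:75109569-75128439), the licensing gene with the highest mean, was at 97.0, 99.2 and 98.1 FPKM in control, 115, 111 and 146 in TBI, 98.2, 87.4 and 76.3 in TBI+DEIX, and 99.8, 97.7 and 85.6 in DEIX. Its TBI libraries were all above control, and its TBI+DEIX libraries reached into the control range. It fell by 29.4% from TBI to TBI+DEIX (log2 change -0.49, SE 0.13, limma adjusted p = 0.0412). Orc1, Cdt1, Mcm3 and Mcm6 had changes between -0.77 and -0.50, with adjusted p from 0.0552 to 0.0871, and were not called. Among these the change was largest for Orc1, the subunit of the origin recognition complex whose level cycles, at 8.07, 6.81 and 10.996 FPKM in TBI and 5.62, 5.21 and 3.20 in TBI+DEIX.

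All 4 GINS subunits, which join Cdc45 to activate the helicase, fell between TBI and TBI+DEIX, while Mcm10 and Cdc45 of the same role were not called (adjusted p = 0.142 and 0.125 in limma). Gins1 (chr2:150905400-150931280) was at 14.7, 17.0 and 15.9 FPKM in control, 16.1, 14.8 and 17.4 in TBI, 9.79, 9.72 and 8.02 in TBI+DEIX, and 13.6, 14.1 and 9.30 in DEIX. Control and TBI overlapped for Gins1, and every TBI+DEIX library was below both. It fell by 43.0% against TBI (log2 change -0.75, SE 0.15, limma adjusted p = 0.0199). Gins2 (chr8:120578633-120589304), the lowest of the 40 by mean level, was at 5.07, 5.20 and 4.90 FPKM in control, 4.93, 5.07 and 5.71 in TBI, 3.00, 3.46 and 3.53 in TBI+DEIX, and 3.93, 4.27 and 3.20 in DEIX. Its treated libraries, irradiated or not, were all below all 6 of the others, and the fall against TBI was 36.4% (limma adjusted p = 0.0218). Exons of Gins2 overlap 2758 bases of exons of Gse1 on the opposite strand, and whether reads were assigned by strand is not given. Gins4 (chr8:23226616-23237659) was at 25.2, 25.5 and 25.9 FPKM in control, 28.8, 25.8 and 30.2 in TBI, 15.4, 22.8 and 22.0 in TBI+DEIX, and 23.7, 26.4 and 22.3 in DEIX. TBI+DEIX replicate 1 was the lowest of the 12, the log2 change against TBI was -0.49 (SE 0.14), and at an adjusted p of 0.0492 (limma) this was the call nearest the threshold. Without TBI+DEIX replicate 1 its log2 change was -0.32 (adjusted p = 0.0307).

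Of the 8 polymerase and primase genes, 5 fell. Prim1 and Prim2, the primase subunits, Pola1 and Pola2, of polymerase alpha, and Pole2, of the leading strand polymerase epsilon, were called in TBI+DEIX against TBI. Prim2 (chr1:33453810-33669795) was at 15.9, 15.5 and 14.6 FPKM in control, 17.9, 17.0 and 21.5 in TBI, 11.46, 11.87 and 11.02 in TBI+DEIX, and 13.29, 14.93 and 12.03 in DEIX. The TBI+DEIX libraries agreed within 1 FPKM of each other and lay below all other libraries, and this was the smallest adjusted p of the 40 genes (log2 change -0.66, SE 0.11, limma adjusted p = 0.0146). Prim1 (chr10:128015168-128030037) was at 36.1, 34.3 and 29.1 FPKM in control, 36.3, 35.6 and 40.5 in TBI, 20.6, 27.1 and 23.8 in TBI+DEIX, and 28.6, 33.0 and 25.5 in DEIX, a fall of 36.4% against TBI (limma adjusted p = 0.0206). Its TBI+DEIX libraries were all below the TBI and control libraries and overlapped those of DEIX. Pold1, Pold2 and Pole, the catalytic subunit of polymerase delta, a delta accessory subunit and the catalytic subunit of epsilon, had changes of -0.30, -0.38 and -0.43 and were not called (adjusted p = 0.315, 0.191 and 0.0933).

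The sliding clamp Pcna (chr2:132249162-132253314) had the highest mean level of the 40 genes, 220 FPKM over the 12 libraries. It was at 257, 251 and 250 FPKM in control, 251, 242 and 312 in TBI, 124, 187 and 161 in TBI+DEIX, and 195, 234 and 169 in DEIX. Every library of DEIX-treated mice was below every library of the other mice, irradiated or not. Pcna fell by 41.4% in TBI+DEIX against TBI (log2 change -0.78, SE 0.17, limma adjusted p = 0.0254).

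Of the 5 clamp loader subunits, which open Pcna to place it on DNA, Rfc3, Rfc4 and Rfc5 fell between TBI and TBI+DEIX, with Rfc3 (chr5:151642756-151651242) at 20.6, 22.5 and 23.4 FPKM in control, 19.8, 21.6 and 26.8 in TBI, 14.9, 16.5 and 14.5 in TBI+DEIX, and 16.3, 18.5 and 14.5 in DEIX. As for Pcna, the libraries of DEIX-treated mice were all below the rest (log2 change -0.53 in TBI+DEIX against TBI, SE 0.12, limma adjusted p = 0.0311). Rfc1, the large subunit, had the smallest change of the 40 genes, -0.04 with a 95% interval from -0.30 to 0.21. It was at 24.8, 22.5 and 23.4 FPKM in control, 26.5, 26.7 and 31.4 in TBI, and 31.3, 23.9 and 27.1 in TBI+DEIX. Rfc2 changed by -0.18 (95% interval -0.44 to 0.08) and was not called. Whether Rfc1 and Rfc2 differed from the other subunits was not tested.

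Of the lagging strand enzymes, Fen1, the nuclease that trims primer flaps, fell and the ligase Lig1 was not called (adjusted p = 0.0657). Fen1 (chr19:10199132-10204169) was at 50.9, 56.7 and 55.0 FPKM in control, 57.5, 52.4 and 73.4 in TBI, 39.4, 40.4 and 37.8 in TBI+DEIX, and 48.7, 50.9 and 41.4 in DEIX. The TBI+DEIX libraries lay below all the others and close together, at 39.2 ± 1.33 FPKM (SD, n = 3), and the fall against TBI was 35.9% (limma adjusted p = 0.0208). Exons of Fen1 overlap 1909 bases of exons of Gm10143 on the opposite strand.

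Of the 5 deoxynucleotide synthesis genes, Rrm2 and Tk1 fell in TBI+DEIX against TBI, and the median change of the 5 in TBI against control was 0.39 on the log2 scale, with none called. Rrm2 (chr12:24708241-24714146), the regulated subunit of ribonucleotide reductase, was at 181, 174 and 169 FPKM in control, 255, 220 and 293 in TBI, 180, 188 and 163 in TBI+DEIX, and 174, 204 and 147 in DEIX. All TBI libraries were above all 9 of the others. The TBI mean was 256 ± 36.7 (SD, n = 3) against 177 ± 12.98 in TBI+DEIX, a fall of 31.0% (log2 change -0.52, SE 0.14, limma adjusted p = 0.0473), and the log2 change of TBI+DEIX against control was 0.02 (95% interval -0.30 to 0.33). Tk1 (chr11:117815526-117826092), the thymidine kinase of S phase cells, was at 59.0, 63.6 and 69.0 FPKM in control, 70.4, 61.8 and 77.1 in TBI, 41.2, 45.9 and 40.5 in TBI+DEIX, and 55.0, 56.6 and 41.7 in DEIX. Unlike the Rrm2 libraries, the Tk1 libraries of TBI+DEIX were all below control as well as TBI (log2 change -0.70 against TBI, limma adjusted p = 0.0194). Rrm1, Tyms and Dut, for the large reductase subunit, thymidylate synthase and dUTPase, had changes of -0.49, -0.54 and -0.58 and were not called (adjusted p = 0.101, 0.121 and 0.0773).

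Behind the fork, Uhrf1 (chr17:56303321-56323486), which brings the maintenance methyltransferase to newly copied DNA, fell by 35.01% in TBI+DEIX against TBI (limma adjusted p = 0.0201). It was at 72.0, 71.9 and 73.7 FPKM in control, 75.4, 75.2 and 92.1 in TBI, 54.3, 58.4 and 45.0 in TBI+DEIX, and 55.6, 60.5 and 50.4 in DEIX. Libraries of DEIX-treated mice ran from 45.0 to 60.5 FPKM and the rest from 71.9 to 92.1. The chromatin assembly subunits Chaf1a and Chaf1b were not called (adjusted p = 0.629 and 0.0680). Chaf1a had the widest TBI+DEIX group of these genes, at 24.13, 11.68 and 11.31 FPKM, so that TBI+DEIX replicate 1 was the highest of all 12 libraries for it. Exons of Chaf1a overlap 4648 bases of exons of Ubxn6 on the opposite strand, and whether reads were assigned by strand is not given in the sources used here.

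**Figure D3:**
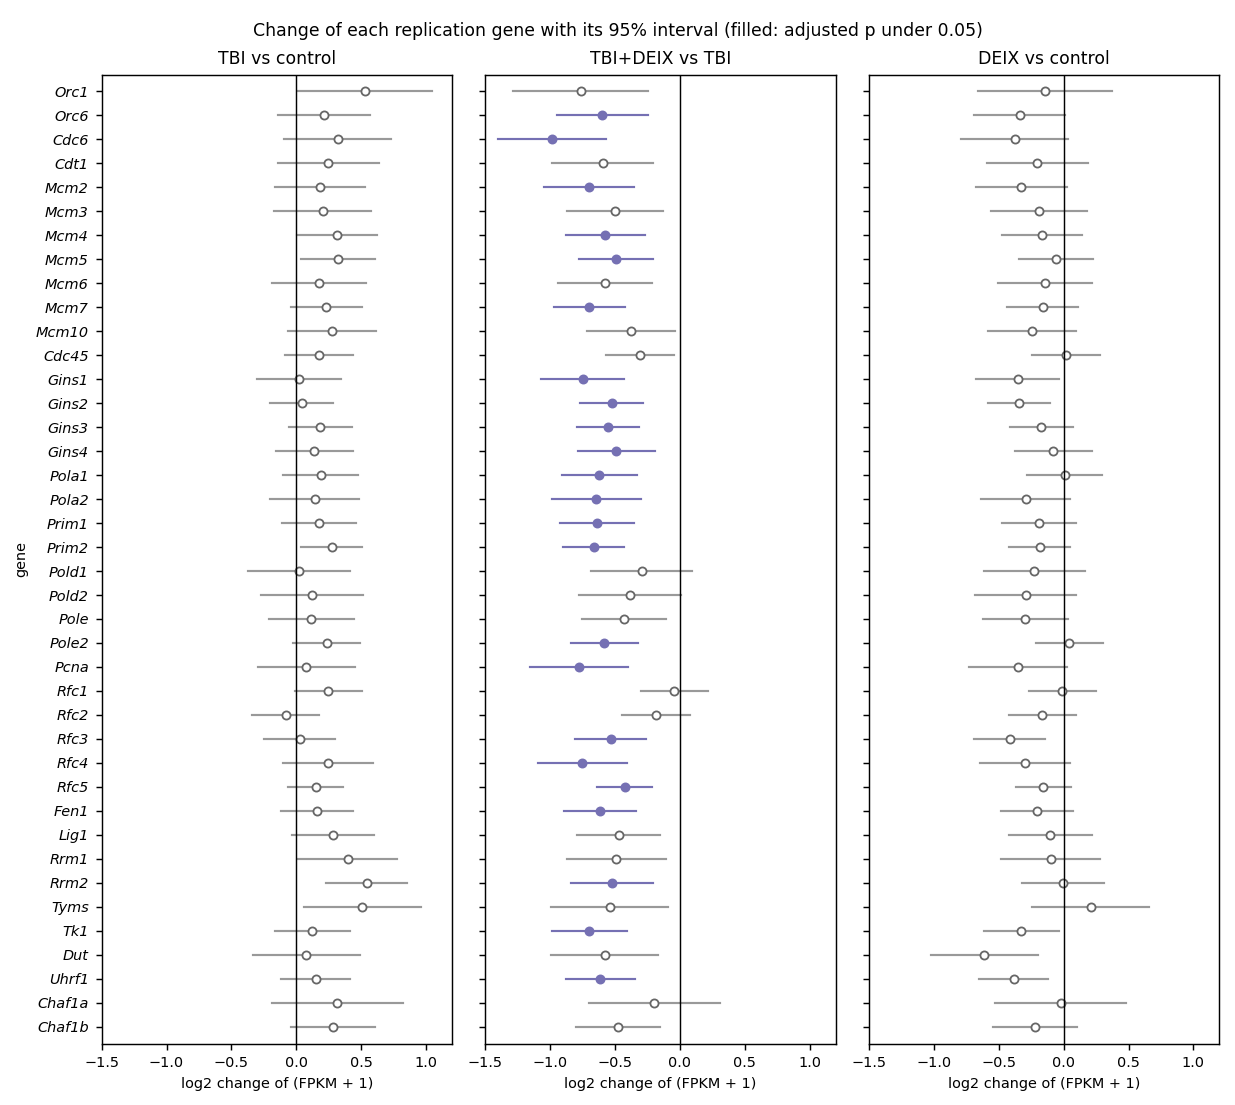
Change on the log2(FPKM + 1) scale of each of the 40 genes (rows) with its 95% interval, in TBI against control, TBI+DEIX against TBI and DEIX against control, with filled points at an adjusted p under 0.05. The filled points are the 23 genes lower in TBI+DEIX than in TBI, and the other panels hold none.

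Irradiation with vehicle was compared with control to see where these genes stood 14 days after the dose. No member was called, where 3.99% of all tested genes were called (439 genes, and 117 to 267 with any 1 TBI or control library left out). At an unadjusted p under 0.05 in limma were 7 of the 40 genes (17.5%) and 18.1% of all tested genes, so with all libraries the members were near the background. Other settings moved this to either side. It was 1 of the 40 genes against 10.9% on the TPM scale, and 1 against 15.4% without TBI replicate 3. Without TBI replicate 2 it was 11 of the 40 genes against 1651 of 10971 tested genes. The estimates were above 0 for 39 of the 40 genes, with a median of 0.19 against 0.05 over all tested genes. They ran from -0.08 for Rfc2, the 1 estimate below 0, to 0.54 for Rrm2, which came nearest to a call (SE 0.14, adjusted p = 0.0640). In 17 genes all TBI libraries were above all control libraries, and 22.0% of all tested genes were in that state. Orc1, Rrm2 and Tyms had TBI means 54.5%, 46.7% and 46.8% above control. Without TBI replicate 3 the median change was 0.09 and still no member was called.

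DEIX alone was compared with control in unirradiated mice. Since no vehicle or gavage is stated for control, the compound and its dosing cannot be told apart here. No member was called, and 7.24% of all tested genes were (796 genes, and 121 to 935 with 1 DEIX or control library left out). An unadjusted p under 0.05 in limma was reached by 6 of the 40 genes and by 24.7% of all tested genes. With all libraries this was a lower share among the members than in the background. The estimates were below 0 for 36 of the 40 genes, with a median of -0.19 against 0.02 over all tested genes. The 6 genes were Gins1, Gins2, Rfc3, Tk1, Dut and Uhrf1, with changes from -0.61 for Dut to -0.33 for Tk1 and adjusted p from 0.0687 to 0.163. Dut was at 44.8, 54.6 and 55.1 FPKM in control and 35.4, 37.5 and 27.5 in DEIX. All DEIX libraries were below all control libraries in 11 of the 40 genes, and in 17.2% of all tested genes. Without DEIX replicate 3 the median was -0.11. The lower share of members at an unadjusted p under 0.05 in limma was not found in every setting. Without DEIX replicate 2 it was 15 of the 40 genes against 26.9% of all tested genes, a higher share among the members. With any other DEIX or control library left out it was 4 to 6 of the 40, and on the TPM scale 7 against 16.6%.

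TBI+DEIX was also compared with control, a comparison that shares the TBI+DEIX libraries with that against TBI and the control libraries with the other 2. Here 17 members fell and none rose, with 13.1% of all tested genes called lower and 30.0% called in either direction. The median change of the 40 genes was -0.35 against 0.02 over all tested genes, and in 26 genes all TBI+DEIX libraries were below all control libraries (21.1% of all tested genes). Gins1 had the smallest adjusted p (log2 change -0.73, SE 0.15, limma adjusted p = 0.00426). Pcna fell by 37.7%, Tk1 by 33.4%, Cdc6 by 38.2% and Gins2 by 34.2%, with adjusted p between 0.0076 and 0.0216. Rrm2, Tyms and Rrm1 were near control (0.02, -0.03 and -0.10), and Rfc1 and Chaf1a had estimates above it (0.20 and 0.12, adjusted p = 0.213 and 0.723). Leaving out control replicate 1 or 2, or TBI+DEIX replicate 3, left 7, 6 and 6 called members. In these 3 fits, 20, 17 and 19 of the 40 genes had an unadjusted p under 0.05 in limma, against 36.1%, 33.6% and 39.8% of all tested genes. With all libraries it was 23 of the 40 genes against 41.6%.

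The interaction, TBI+DEIX against TBI minus DEIX against control, where TBI mice had the vehicle and none is stated for control, called no member and 0.200% of all tested genes. An unadjusted p under 0.05 in limma was reached by 11 of the 40 genes (27.5%) and by 7.50% of all tested genes. This excess depended on the setting. On the TPM scale it was 1 of the 40 genes against 4.83% of all tested genes. Without control replicate 3 or TBI replicate 3 it was 4 of the 40, against 4.99% and 6.33%. Without DEIX replicate 3 it was 17 of the 40 against 6.97%, and without TBI+DEIX replicate 1 it was also 17, against 2087 of 10961 tested genes. The estimates were below 0 for 39 of the 40 genes, with a median of -0.38 against -0.02 over all tested genes. The smallest adjusted p was that of Pole2, 0.219, with a change of -0.63 (SE 0.17). A difference between the effects of DEIX with and without irradiation was thus not called for any member.

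Other genes of the pathway were read in the same way, with no test of the difference between lists. Of 39 other replication genes, 8 fell and none rose in TBI+DEIX against TBI, with a median of -0.33. Dscc1, of an alternative clamp loader, fell by 0.77 on the log2 scale (limma adjusted p = 0.0204), and Rpa3 and Rpa2, subunits of the protein that coats single-stranded DNA, fell by 0.74 and 0.64. Top2a, the topoisomerase that was the most abundant of that list, changed by -0.26 and was not called (adjusted p = 0.265). Of 22 other nucleotide synthesis genes, 3 fell, Dtymk and Paics among them, with a median of -0.24. Samhd1, which degrades deoxynucleotides, had the highest mean level of that list and a change of 0.30 (adjusted p = 0.589).

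Regulators of the G1 to S step were tested for 27 of 28 listed genes. In TBI+DEIX against TBI, 5 fell and none rose, with a median of -0.33. The cyclins Ccne2 and Ccne1, which start S phase with Cdk2, fell by 0.83 and 0.82 on the log2 scale, and Cdk4, Skp2 and E2f6 fell by 0.68, 0.60 and 0.56 (adjusted p from 0.0174 to 0.0468 in limma). Tfdp1, the partner through which E2F factors bind DNA, was the 1 gene of this list called in TBI against control, with a rise of 0.42 (limma adjusted p = 0.0226). Its mean was 198 FPKM in TBI+DEIX, 186 in TBI and 139 in control.

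Mitosis genes, which act after replication is complete, were read beside them. Of 25, 2 fell in TBI+DEIX against TBI (Nusap1 and Nuf2, by 0.46 and 0.32), with a median of -0.24. Against control, the median change of the 25 in TBI+DEIX was 0.04, with none called, where the replication genes had -0.35. The other replication genes had -0.15 there, with 6 called lower and 1 higher. Other nucleotide synthesis genes had -0.03, with 2 lower, and the G1 to S regulators -0.04, with 3 lower and 3 higher. Of all tested genes 13.1% were called lower and 16.9% higher. The difference between the lists was not tested. The mean centred level of the mitosis genes was 0.17, -0.14 and -0.18 in TBI+DEIX replicates 1, 2 and 3, where TBI ran from 0.07 to 0.26 and control from -0.10 to -0.05. TBI+DEIX replicate 1 was thus within the TBI range for mitosis genes and the other 2 libraries below control, while all 3 were below control for replication genes (-0.17, -0.20 and -0.39).

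**Figure D4:**
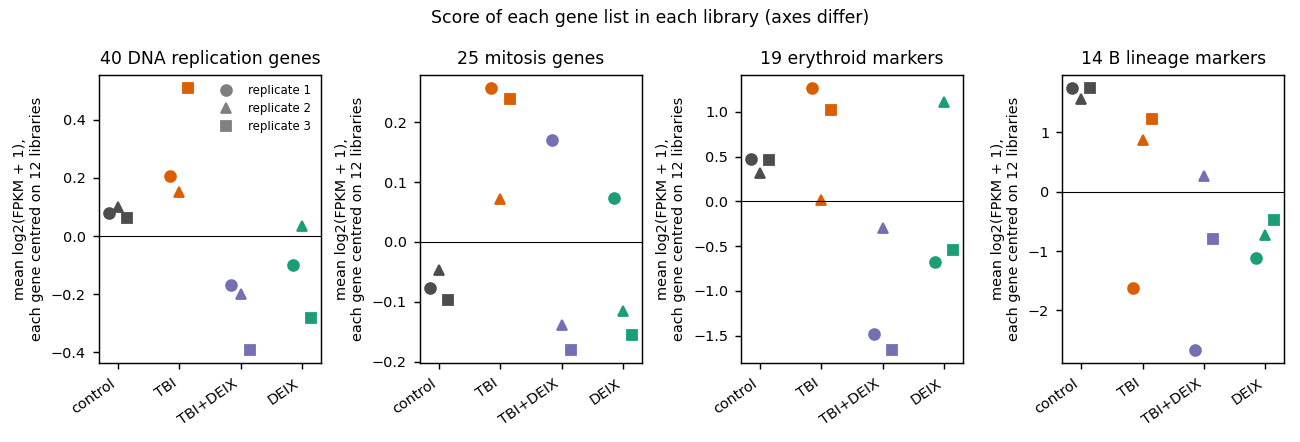
Mean log2(FPKM + 1) of 4 gene lists in each library, as the mean of gene values centred across all 12 libraries, by group (1 point per library, vertical axes differ between panels). All 3 TBI+DEIX libraries lie below all control and TBI libraries for the replication genes, and also for the erythroid markers.

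Marker lists of the marrow's cell types were read in the same comparison. Of 19 erythroid markers, 8 fell and none rose in TBI+DEIX against TBI, with a median of -1.70, among them Hemgn and Rhd (by 2.06 and 1.98 on the log2 scale). Their summed level was 3079 to 4652 FPKM in control, 1848 to 6660 in TBI, 412 to 1622 in TBI+DEIX and 1312 to 6239 in DEIX. Within groups the erythroid score did not always order the libraries as the replication score did. DEIX replicate 2 was the highest of its group on both (1.11 and 0.03), while TBI replicate 1 was the highest of its group for erythroid markers (1.27) and TBI replicate 3 for replication genes (0.51). TBI+DEIX replicate 2 had an erythroid score of -0.30 against -1.48 and -1.66 in the other 2 libraries, and replication scores of -0.20, -0.17 and -0.39 in replicates 2, 1 and 3. Of 14 B lineage markers none was called in TBI+DEIX against TBI, with a median of -1.29, and 11 fell against control. Their summed level was 580 to 700 FPKM in control, 42.6 to 525 in TBI, 9.63 to 259 in TBI+DEIX and 78.9 to 125 in DEIX. Maturing neutrophil markers, of cells that no longer divide, had a median change of 0.46 in TBI+DEIX against TBI with 0 of 12 called, and 6 of 12 rose against control. Their summed level was 22598 to 31299 FPKM in control, 26609 to 33060 in TBI, 22340 to 54506 in TBI+DEIX and 27137 to 37935 in DEIX. In the same comparison 2 of 10 monocyte markers fell, with a median of -0.47. No promyelocyte (10), T and NK cell (11) or progenitor (10) marker was called, with medians of -0.01, 0.16 and 0.04. In TBI+DEIX against control, where 17 replication genes fell, 11 of 19 erythroid (median -1.41), 6 of 10 progenitor (median -0.90), 5 of 11 T and NK cell (median -0.75), 4 of 10 monocyte (median -0.60) and 1 of 10 promyelocyte markers (median -0.15) also fell, and 1 monocyte marker rose, where 13.1% of all tested genes were called lower and 16.9% higher. In TBI against control, 4 of 10 progenitor, 3 of 11 T and NK cell and 2 of 14 B lineage markers fell and 1 monocyte marker rose, where 3.10% of all tested genes were called lower and 0.891% higher. In DEIX against control, 2 B lineage markers and 1 T and NK cell marker fell, and 2 neutrophil and 3 monocyte markers rose, where 2.72% of all tested genes were called lower and 4.52% higher. None of these listed markers was at 0 in any library, while S100a8, S100a9 and Ngp, outside the lists, were at 0 in some, all 3 of them in control replicate 3 and TBI+DEIX replicate 2. The part of these lineages in the lower replication levels was not tested.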

How the data were processed

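RNA of whole bone marrow was sequenced in 12 libraries, 3 in each of 4 groups, with a directional messenger RNA kit, per the labels' protocols. STAR 2.6, Cufflinks 2.2.1 and the build mm10 are named in the submitters' processing notes, with no role stated. The deposited table gives FPKM as the authors computed it. Without counts in it, tests for counts were not applied, and total depth is unknown. All 21853 identifiers matched protein-coding genes of GENCODE vM21 (GRCm38).

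Values were tested as log2(FPKM + 1), a pseudocount of 1, which understates changes of low genes. Genes with at least 1 FPKM in at least 3 libraries entered a fit by limma 3.58.1 under R 4.3.3 (trended prior, 2-sided), in 1 model of the 4 group means with 8 residual degrees of freedom. Benjamini-Hochberg adjustment ran over all 10994 tested genes in each of 5 contrasts, and a gene was called at an adjusted p under 0.05. The script was tested on simulated data.

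The 40 members, the other gene lists and the cell type markers were chosen with earlier results of these data known. Values in every library are given for up to 6 called members per contrast by adjusted p, and for the member of each role with the highest mean. Those of Orc1, Rfc1, Chaf1a and Dut were added after their values were seen. Other genes named from the lists were called (at most 6 per list and contrast by adjusted p) or among the 3 highest means of their list. Alternatives were another pseudocount, filter, scaling or prior, array weights, a replicate block, the compared groups alone and leaving out each library. For each contrast, only libraries of the groups in it were left out. Library scores are means of log2(FPKM + 1), each gene centred over the 12 libraries. Exons of 14 members overlap exons of another annotated gene, 13 of them on the opposite strand, and whether reads were assigned by strand is not given in the sources used here.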

Additional observations from a re-analysis of the deposited data

How the results depend on the processing

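No median change of the members reversed its direction under the alternatives where it was followed. The median was not followed with array weights, a replicate block, a robust prior or the compared groups alone. No change of a member in a contrast where it was called reversed its direction under any alternative run. Single members not called in a contrast were not followed there. The balance of calls over all genes turned on the TPM scale in TBI+DEIX against TBI, DEIX against control and TBI+DEIX against control. For TBI+DEIX against TBI, where 23 members were called, the count was 22 or 23 with a pseudocount of 0.1 or 5, a mean FPKM of at least 5, each library centred on its median, or a robust prior, and 18 without a filter on low values. It was 2 with values rescaled to the same sum in every library (TPM scale) and a median change of -0.71, 14 on that scale without S100a8, S100a9 and Ngp (an alternative chosen after seeing the data, since these genes are listed at 0 in some libraries and very high in others), 37 with array weights, and 0 with the compared groups alone, where the adjusted p of the 23 ran from 0.144 to 0.206. Leaving out each TBI or TBI+DEIX library in turn gave 0 to 35: 0 without TBI replicate 3 or TBI+DEIX replicate 3, 14 without TBI replicate 2, and 35 without TBI+DEIX replicate 1. A replicate block gave 14 members here, 15 against control and 0 in the other contrasts. Correlations of same-numbered libraries' deviations from their group means ran from -0.45 to 0.24, which showed no pairing by replicate number. With 3 libraries in each group such correlations cannot exclude a pairing. For TBI+DEIX against control, with 17 members, the TPM scale gave 6, that scale without the 3 genes 11, array weights 35, and leaving out a library 6 to 21. For TBI against control, with none, array weights gave 14 and the compared groups alone 1, and leaving out a library 0 to 0. For DEIX against control, with none, array weights gave 23, the compared groups alone 3, leaving out a library 0 to 1 (1 without DEIX replicate 2), and the TPM scale a median of -0.34. With array weights 67.5% of members and 55.6% of all tested genes had an unadjusted p under 0.05 in limma. With the compared groups alone these shares were 37.5% and 35.6%. Array weights gave 2 calls in the interaction. That fit put 27.5% of members and 28.0% of all tested genes at an unadjusted p under 0.05 in limma. Its shares were 92.5% and 57.3% in TBI+DEIX against TBI, and 90.0% and 66.3% in TBI+DEIX against control. The array weights fit stopped before it converged, with a weight of 97.5 for control replicate 2 and 0.0498 for TBI+DEIX replicate 1. The cause of these changes was not tested. Leaving out 1 library moved the median change between 0.09 and 0.26 in TBI against control, -0.64 and -0.44 in TBI+DEIX against TBI, -0.27 and -0.11 in DEIX against control, -0.40 and -0.31 in TBI+DEIX against control, and -0.47 and -0.27 in the interaction.

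The TPM scale moved the median change of all tested genes from 0.003 to -0.12 in TBI+DEIX against TBI and from 0.02 to -0.13 in DEIX against control. It moved the share of called genes that were higher from 57.9% to 36.0% in TBI+DEIX against TBI, from 62.4% to 18.2% in DEIX against control, from 56.2% to 29.8% in TBI+DEIX against control and from 22.3% to 8.77% in TBI against control, where centring each library on its median gave 13.9%. Over all genes tested, TBI+DEIX against TBI had 891 calls, 5 without TBI replicate 3, 49 without TBI+DEIX replicate 3, 2828 without TBI+DEIX replicate 1, and 0 with the compared groups alone. With 1 library left out, calls over all genes ran from 117 to 267 in TBI against control (439 with all), from 121 to 935 in DEIX against control (796), from 1971 to 4224 in TBI+DEIX against control (3299) and from 0 to 330 in the interaction (22). Depth limits the lowest members most, Gins2, Orc1 and Gins3.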

Other observations

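TBI+DEIX replicate 1 did not move the 40 genes as one. It held the lowest value of all 12 libraries for 9 genes, Pcna and Gins4 among them (124 and 15.4 FPKM), and the highest of its group for 18. Rrm1, Tyms, Rfc1, Pold1 and Chaf1a were examples of the latter, chosen after their values were seen. Rrm1, the large subunit of ribonucleotide reductase, was at 127 FPKM there and 90.0 and 79.5 in the other 2 TBI+DEIX libraries. Tyms, thymidylate synthase, was at 26.7 FPKM there and 17.7 and 16.8 in the others. Pold1, the catalytic subunit of polymerase delta, was at 35.5 FPKM there and 22.2 and 19.6 in the others. The depth of this library was not resolved, and its FPKM sum was the lowest of the 12.

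The 40 genes took 0.302% to 0.329% of the FPKM sum of a control library, 0.349% to 0.436% of a TBI library, 0.154% to 0.311% of a TBI+DEIX library and 0.228% to 0.293% of a DEIX library. The sum includes S100a8, S100a9 and Ngp, listed at 0 in some libraries. Without these genes, an alternative chosen after seeing the data, the shares were 0.329% to 0.385% in control, 0.390% to 0.520% in TBI, 0.209% to 0.359% in TBI+DEIX and 0.278% to 0.349% in DEIX. The TBI libraries were all above control with and without them, and the DEIX libraries were all below control only with them.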
